A study of Mus musculus with 10 samples.

Results

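Chromatin accessibility was examined at 9 mouse genes of transforming growth factor beta (TGF-β) signalling: the receptors Tgfbr1, Tgfbr2 and Tgfbr3, the signal transducers Smad2, Smad3 and Smad4, the inhibitory Smad7, and the repressors Ski and Skil. A region was counted to a gene if it overlapped the protein-coding span of the gene in GRCm38, or otherwise if that span was the nearest one and lay within 100 kb. By this rule 161 of the 77076 regions in the deposited ATAC-seq count table belonged to the 9 genes, 102 of them inside a span, 25 on its low-coordinate side and 34 on its high-coordinate side. An assigned gene is a position and not a shown target of the region. ATAC-seq inserts adapters into open DNA with a transposase, so a higher count over a region means that it was cut more often in the cells sampled. Regulatory T (Treg) cells came by direct sorting out of mixed marrow chimeras (spleen with lymph nodes), in which the blood cells of a host derive from a mixture of donor marrows. The 10 libraries comprised 2 of Fntb-deficient (FntbKO) eTreg cells, 2 of FntbKO cTreg cells, 3 of wild-type (WT) eTreg cells and 3 of WT cTreg cells. The series title speaks of effector Treg cells, and the labels do not spell out cTreg, which in this field usually stands for central Treg cells. Fntb codes for the beta subunit of farnesyltransferase, which adds the lipid farnesyl to Ras and other proteins. The labels give neither the allele and the Cre driver, nor the sorting gates, nor the age of the mice, nor the number of mice per library, nor whether both genotypes came from the same hosts. Because nothing says that the libraries came from separate mice, the p-values measure only the spread between these libraries.

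TGF-β binds the receptor encoded by Tgfbr2, which then phosphorylates the kinase encoded by Tgfbr1, while betaglycan, the product of Tgfbr3, is a co-receptor that presents the ligand. The activated receptor phosphorylates Smad2 and Smad3, these pair with Smad4 and bind DNA, and Smad7 blocks the receptor as negative feedback. Ski and SnoN, the product of Skil, bind the Smads and repress their targets until TGF-β triggers their degradation. In T cells the pathway restrains activation, takes part in inducing Foxp3 in the periphery, and sustains expression of the integrin chain Itgae.

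The RefSeq table of start windows was matched for Tgfbr1, Tgfbr2, Smad3 and Ski, and those of Tgfbr3, Smad2, Smad4, Smad7 and Skil were not used here. The sequence before the start is shown for Tgfbr1, Tgfbr2 and Smad3, where a region of the table covered the start, so that the accessibility at these starts can be read beside its DNA. Each run is the 250 bases before the start in RefSeq on GRCm38.p6, 5′ to 3′ on the strand of the gene. Capitals mark 3 motifs searched on both strands: the GC box GGGCGG, the CCAAT box CCAAT, and the Smad motif CAGAC. The marked motifs do not overlap each other in these windows. The search also covered the ETS core CCGGAA, the CRE TGACGTCA, the TATA box TATAAA and the AP-1 motif TGANTCA (N is any base). It further covered the Smad palindrome GTCTAGAC and the E-box CACGTG. None of these had a match in the windows shown. Of all windows of this length, between 0.167% (the Smad palindrome) and 12.4% (the TATA box) held one of them. The windows are chr4:47352972-47353221 (plus strand) for Tgfbr1, chr9:116175364-116175613 (minus strand) for Tgfbr2 and chr9:63757995-63758244 (minus strand) for Smad3. For Tgfbr1 this is the window of the first start. RefSeq lists another Tgfbr1 start at chr4:47386216, which no region covered, and its window is not shown. That window was 52.8% G or C and held a Smad motif.
Tgfbr1: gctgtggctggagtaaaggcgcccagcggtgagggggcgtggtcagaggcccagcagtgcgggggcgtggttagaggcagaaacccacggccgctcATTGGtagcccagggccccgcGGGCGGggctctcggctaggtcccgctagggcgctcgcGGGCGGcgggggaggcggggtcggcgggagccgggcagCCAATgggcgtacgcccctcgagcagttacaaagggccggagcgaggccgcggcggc
Tgfbr2: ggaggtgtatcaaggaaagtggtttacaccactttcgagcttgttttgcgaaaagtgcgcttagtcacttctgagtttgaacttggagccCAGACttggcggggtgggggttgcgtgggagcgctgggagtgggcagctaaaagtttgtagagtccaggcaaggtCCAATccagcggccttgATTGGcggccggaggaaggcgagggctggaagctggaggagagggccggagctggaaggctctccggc
Smad3: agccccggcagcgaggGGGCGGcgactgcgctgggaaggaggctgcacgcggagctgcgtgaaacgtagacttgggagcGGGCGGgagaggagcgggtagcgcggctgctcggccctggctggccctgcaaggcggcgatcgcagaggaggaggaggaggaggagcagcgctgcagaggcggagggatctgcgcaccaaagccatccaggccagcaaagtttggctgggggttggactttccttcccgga
The Tgfbr1 window shown held 2 GC boxes and 2 CCAAT boxes. The Tgfbr2 window held 2 CCAAT boxes, 1 Smad motif and no GC box, and the Smad3 window held 2 GC boxes alone. Of all 32851 windows of this length in the table, 32.7% held the GC box, 33.8% the CCAAT box and 42.2% the Smad motif. The windows were 74.8% G or C for Tgfbr1, 58.4% for Tgfbr2 and 69.2% for Smad3, against a median of 52.4% over all windows. All 250 bases of the Tgfbr1 and Smad3 windows lay inside a region of the table, but only the 104 bases of the Tgfbr2 window next to the start did. These matches describe the letters and do not show that a factor is bound.

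Total counts were 5058328 and 10126587 in FntbKO eTreg, 7450914 and 15328775 in FntbKO cTreg, between 5946131 and 9822626 in WT eTreg and between 5694869 and 9347634 in WT cTreg. The member regions held between 0.217% and 0.238% of the counts of a library, with a median of 32 to 115 counts per region. At the region over the Fntb start, chr12:76837192-76837915, the CPM (counts per 1000000 of the library, scaled by TMM) was 11.6 and 7.48 in FntbKO eTreg, 13.1 and 11.2 in FntbKO cTreg, 29.4 to 30.3 in WT eTreg and 29.2 to 36.9 in WT cTreg, so every FntbKO library lay below every WT library, though the labels do not say which part of the gene was deleted. The highest region of Foxp3, the factor that defines Treg cells, had 26.0 to 35.1 CPM across the 10 libraries. Over 8 Treg markers the summed CPM was 1590 to 1650 in FntbKO eTreg, 1600 to 1630 in FntbKO cTreg, 1500 to 1550 in WT eTreg and 1420 to 1600 in WT cTreg. Summed over the regions of 8 central Treg markers such as Ccr7 and Lef1, CPM was 3210 to 3260 in FntbKO eTreg, 3550 to 3690 in FntbKO cTreg, 2740 to 3040 in WT eTreg and 3230 to 3450 in WT cTreg. For 8 effector Treg markers such as Klrg1 and Icos it was 1270 to 1340 in FntbKO eTreg, 1120 to 1160 in FntbKO cTreg, 1380 to 1470 in WT eTreg and 1190 to 1360 in WT cTreg. Within each subset FntbKO was thus higher for the central list and lower for the effector list in every library. For 6 myeloid markers the sum was 327 to 337 in FntbKO eTreg, 265 to 289 in FntbKO cTreg, 357 to 386 in WT eTreg and 292 to 348 in WT cTreg, and 2 of the 6, Lyz2 and Csf1r, had no region. For 5 CD8 T or NK cell markers it was 236 to 247 in FntbKO eTreg, 282 to 291 in FntbKO cTreg, 250 to 273 in WT eTreg and 289 to 296 in WT cTreg. For 6 B cell markers, among which Ms4a1 and Cd79b had no region, it was 54.9 to 63.1 in FntbKO eTreg, 49.0 to 51.0 in FntbKO cTreg, 67.3 to 75.0 in WT eTreg and 61.7 to 73.1 in WT cTreg. Their part in the results below was not tested. In these bulk libraries, fewer cells with an open region and less access per cell cannot be told apart. On the first principal component, with 32.6% of the variance, 1 FntbKO cTreg library (replicate 1) lay at -155 against -67.1 for the other, and 1 WT cTreg library (replicate 2) lay at 9.02 against -56.7 and -38.1 for the others. The WT eTreg libraries lay at 83.5, 65 and 130, with replicate 3 the farthest out. The FntbKO eTreg libraries lay at 0.691 and 28.7, below all WT eTreg libraries.

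The changes that passed the test sat mainly at Tgfbr2 and Tgfbr3, the genes with the most regions. Between eTreg and cTreg in WT, the share of tested regions that passed was 11.4% at Tgfbr2 and 10.3% at Tgfbr3. It was 8.33% at Smad4, 6.25% at Smad7 and 3.7% at Smad3, and each share rests on few regions. Of the 161 regions, 159 passed the filter on low counts, and the 2 that did not lay at Smad3 and Smad4. A region was called at an adjusted p under 0.05 in the quasi-likelihood test of edgeR, with Benjamini-Hochberg adjustment over 76216 regions. Between eTreg and cTreg, 1 of the 159 member regions was called in FntbKO cells, lower in eTreg, which is 0.629% of them against 1.36% of all tested regions called in either direction and 0.39% called lower. In WT cells 10 were called, 3 higher and 7 lower in eTreg, or 6.29% against 3.44% of all tested regions (1.83% higher and 1.61% lower). Between FntbKO and WT, 2 regions were called in eTreg cells, both lower in FntbKO, or 1.26% against 0.35% of all tested regions in either direction and 0.169% lower. In cTreg cells edgeR called 0 member regions, against 0.568% of all, with 16 at an unadjusted p under 0.05, and DESeq2 called 0 as well. The share of member regions at an unadjusted p under 0.05 was 13.8% for the subsets in FntbKO (15.3% of all tested regions), 26.4% for the subsets in WT (18.0% of all), 13.8% for the genotypes in eTreg (12.2% of all) and 10.1% for the genotypes in cTreg (12.4% of all). The interaction, that is whether the difference between eTreg and cTreg differed between FntbKO and WT, gave 0 calls in edgeR among the members and 0.0% among all regions. In that test 5 member regions, or 3.14%, had an unadjusted p under 0.05, against 4.07% of all tested regions, and DESeq2 called 0. No difference between the genotypes in their eTreg to cTreg contrast was thus shown for any region. The 13 called folds fell on 12 regions, and 2 of the folds kept their call whichever single library was left out.

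**Figure D1:**
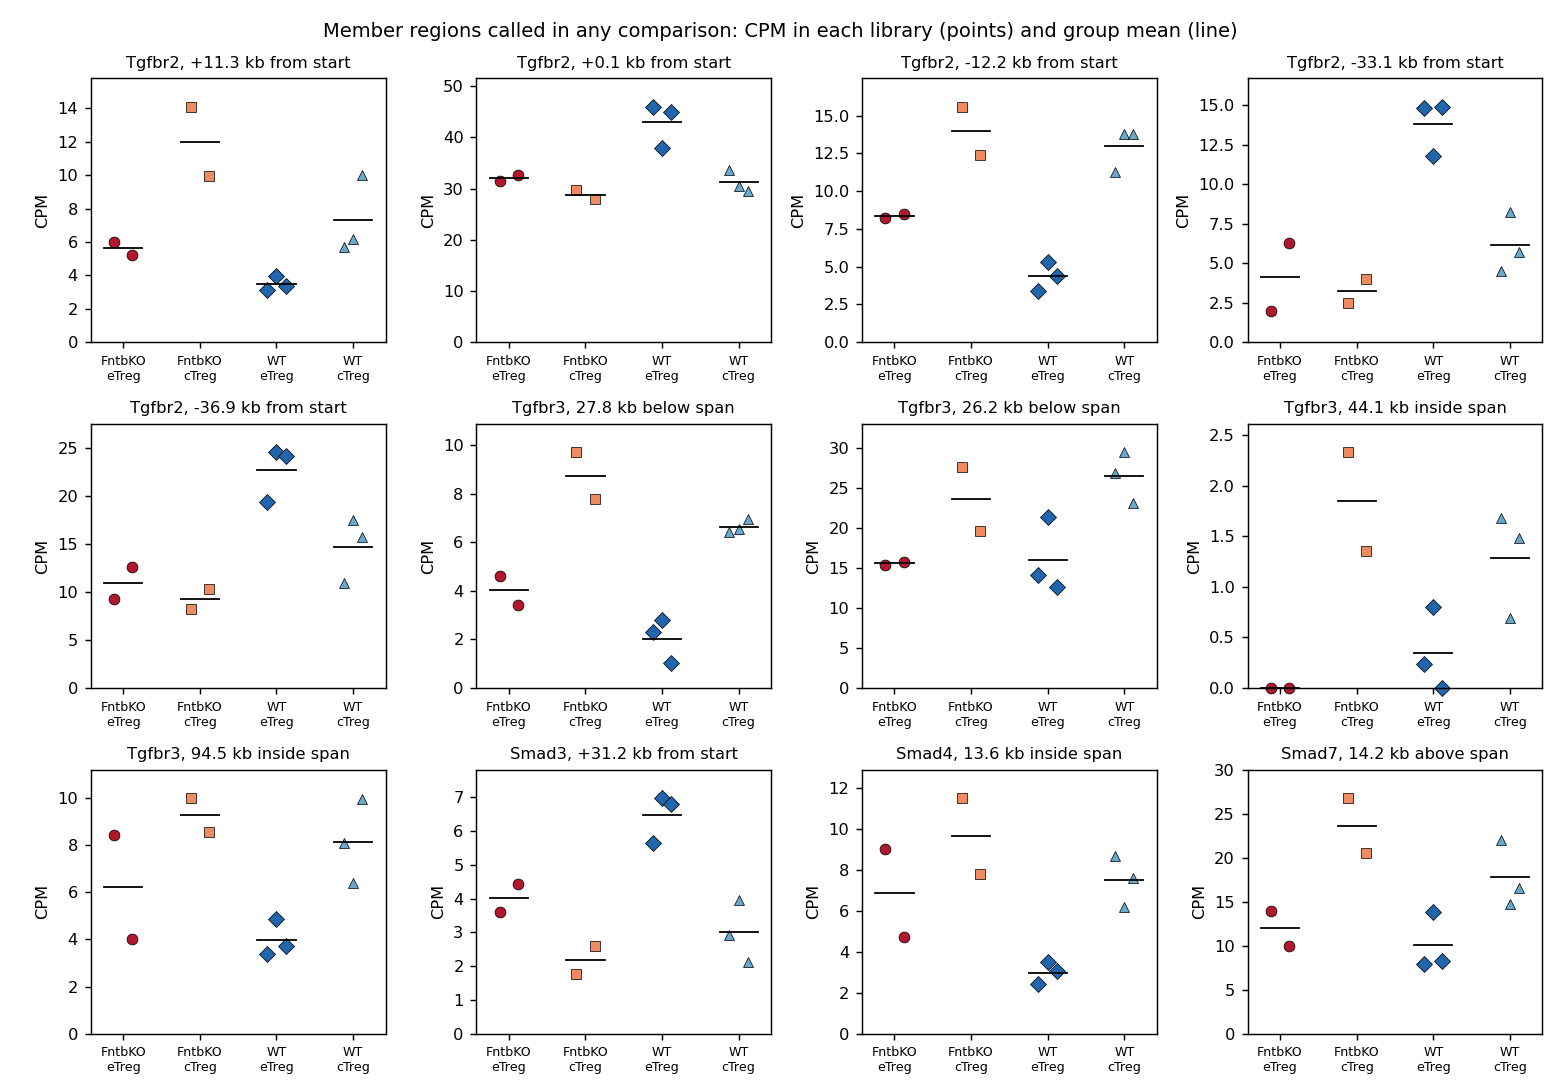
Accessibility (CPM, y axis) of the 12 member regions called in any comparison, 1 panel each, in the libraries of FntbKO eTreg, FntbKO cTreg, WT eTreg and WT cTreg from left to right. Points are libraries and lines are group means; at the Tgfbr2 region at -33.1 kb the 3 WT eTreg libraries (11.8 to 14.9 CPM) lie above all others.

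Tgfbr1, which encodes the type I receptor kinase, had 5 regions and no call in any comparison. Its region over the first start, chr4:47352831-47353710, was the most open of the 5. This region had 74.3 and 68.2 CPM in FntbKO eTreg, 65.9 and 66.5 CPM in FntbKO cTreg, 70.8, 64.9 and 71.1 CPM in WT eTreg, and 61.2, 63.5 and 61.3 CPM in WT cTreg. The eTreg libraries lay above the cTreg libraries of the same genotype, but by little: the log2 fold of eTreg over cTreg was 0.10 (SE 0.11) in FntbKO and 0.15 (SE 0.09) in WT. FntbKO over WT was 0.04 (SE 0.10) in eTreg, where the libraries overlapped, and 0.10 (SE 0.10) in cTreg.

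Tgfbr2, the type II receptor that binds the ligand, had 35 regions, of which 19 lay inside its span and 15 before its start. It carried 4 of the 10 calls between the WT subsets, or 11.4% of its regions against 3.44% of all tested regions. Both calls between the genotypes in eTreg were also here, or 5.71% against 0.35% of all. The region over the start, chr9:116175017-116175467, was its most open one. The CPM there was 31.5 and 32.6 in FntbKO eTreg, 29.7 and 27.9 in FntbKO cTreg, 46.0, 37.9 and 45.0 in WT eTreg, and 33.7, 30.5 and 29.5 in WT cTreg. The 3 WT eTreg libraries were higher than all 7 others. Access at the start rose in WT eTreg relative to WT cTreg by 0.46 on the log2 scale (SE 0.12, edgeR adjusted p = 0.0294). In FntbKO cells the same contrast was 0.16 (SE 0.15, adjusted p = 0.656), and FntbKO over WT in eTreg was -0.42 (SE 0.13, adjusted p = 0.17). The interaction was -0.30 (SE 0.19, adjusted p = 1.0). The call was lost without WT cTreg 3, WT eTreg 1 or WT eTreg 3, with an adjusted p of up to 0.151, and over all 10 left-out libraries the fold stayed between 0.40 and 0.55.

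A pair of neighbouring regions before the Tgfbr2 start had less access in FntbKO than in WT eTreg cells. The first, at -33.1 kb (chr9:116208241-116208600), had 2.0 and 6.3 CPM in FntbKO eTreg, 2.46 and 4.02 CPM in FntbKO cTreg, 14.8, 11.8 and 14.9 CPM in WT eTreg, and 4.47, 8.26 and 5.7 CPM in WT cTreg. It was high in the WT eTreg libraries alone, and the FntbKO eTreg libraries overlapped those of both cTreg groups. It fell in FntbKO relative to WT eTreg, with a log2 fold of -1.61 (SE 0.35, edgeR adjusted p = 0.0362), and in WT it rose in eTreg relative to cTreg by 1.18 (SE 0.29, adjusted p = 0.0256). These folds share the 3 WT eTreg libraries, so they are not independent of each other. In FntbKO cells eTreg over cTreg was 0.42 (SE 0.40, adjusted p = 0.675), FntbKO over WT in cTreg was -0.85 (SE 0.36, adjusted p = 0.317), and the interaction was -0.76 (SE 0.49, adjusted p = 1.0). The second, at -36.9 kb (chr9:116212040-116212499), had 9.22 and 12.6 CPM in FntbKO eTreg, 8.21 and 10.3 CPM in FntbKO cTreg, 19.3, 24.5 and 24.1 CPM in WT eTreg, and 10.9, 17.5 and 15.7 CPM in WT cTreg. Here too the WT eTreg libraries were the highest, and in each subset the FntbKO libraries lay below those of WT. It fell in FntbKO relative to WT eTreg, the log2 fold being -1.02 (SE 0.22, adjusted p = 0.0364), and in cTreg FntbKO over WT was -0.65 (SE 0.22, adjusted p = 0.201). Its eTreg to cTreg fold in WT was 0.62 (SE 0.19, adjusted p = 0.0655).

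Both genotype calls rested on few libraries: each was lost without FntbKO eTreg 1, FntbKO eTreg 2, WT cTreg 3, WT eTreg 1 or WT eTreg 3, and the second also without WT eTreg 2, with an adjusted p of up to 0.378. With any 1 of the 10 libraries left out the log2 fold ran from -2.77 to -1.13 at the first region and from -1.29 to -0.84 at the second. The subset call of the first was lost without WT cTreg 1, WT cTreg 3, WT eTreg 1 or WT eTreg 3, with an adjusted p of up to 0.134. The marker sums differed between the same eTreg libraries: the effector list had 1270 to 1340 CPM in FntbKO eTreg against 1380 to 1470 in WT eTreg, and the central list 3210 to 3260 against 2740 to 3040. The B cell list had 54.9 to 63.1 CPM in FntbKO eTreg against 67.3 to 75.0 in WT eTreg, the myeloid list 327 to 337 against 357 to 386, and the CD8 T or NK cell list 236 to 247 against 250 to 273. The Treg list had 1590 to 1650 CPM in FntbKO eTreg against 1500 to 1550 in WT eTreg. In none of these 6 lists did the genotypes overlap, and the part of these differences in the result was not tested.

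The smallest adjusted p of any member region was that of the Tgfbr2 region at -12.2 kb, chr9:116187404-116187814, which was less open in eTreg. It had 8.21 and 8.46 CPM in FntbKO eTreg, 15.6 and 12.4 CPM in FntbKO cTreg, 3.37, 5.28 and 4.41 CPM in WT eTreg, and 11.3, 13.8 and 13.8 CPM in WT cTreg. Every eTreg library lay below every cTreg library, and the FntbKO eTreg libraries lay between the WT eTreg and the WT cTreg libraries. In WT it fell in eTreg by 1.56 on the log2 scale (SE 0.23, edgeR adjusted p = 0.000752), and the call was kept whichever library was left out, with folds of -1.74 to -1.40. In FntbKO eTreg over cTreg was -0.73 (SE 0.26, adjusted p = 0.154), FntbKO over WT in eTreg was 0.93 (SE 0.26, adjusted p = 0.118), and the interaction was 0.83 (SE 0.35, adjusted p = 1.0).

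The last called Tgfbr2 region lay inside the gene, at 11.3 kb after the start (chr9:116163909-116164285), and it too was less open in eTreg. It had 6.01 and 5.22 CPM in FntbKO eTreg, 14.1 and 9.92 CPM in FntbKO cTreg, 3.13, 3.98 and 3.39 CPM in WT eTreg, and 5.72, 6.19 and 10.0 CPM in WT cTreg. The subsets did not overlap in either genotype. The log2 fold of eTreg over cTreg was -1.07 in WT (SE 0.28, edgeR adjusted p = 0.0326) and -1.09 in FntbKO (SE 0.32, adjusted p = 0.0774), so the sizes were alike and only the WT contrast passed the test. The WT call was lost without WT cTreg 3, WT eTreg 1 or WT eTreg 3, with an adjusted p of up to 0.26. Over the 19 regions inside the span, the median log2 fold of eTreg over cTreg was 0.07 in FntbKO, with 8 regions below 0, and -0.23 in WT, with 17 below 0. Of all regions inside a gene span, 49.8% were below 0 in FntbKO and 50.0% in WT. The interaction over these 19 regions had a median of 0.13, with 2 at an unadjusted p under 0.05 in edgeR and 0 called.

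**Figure D2:**
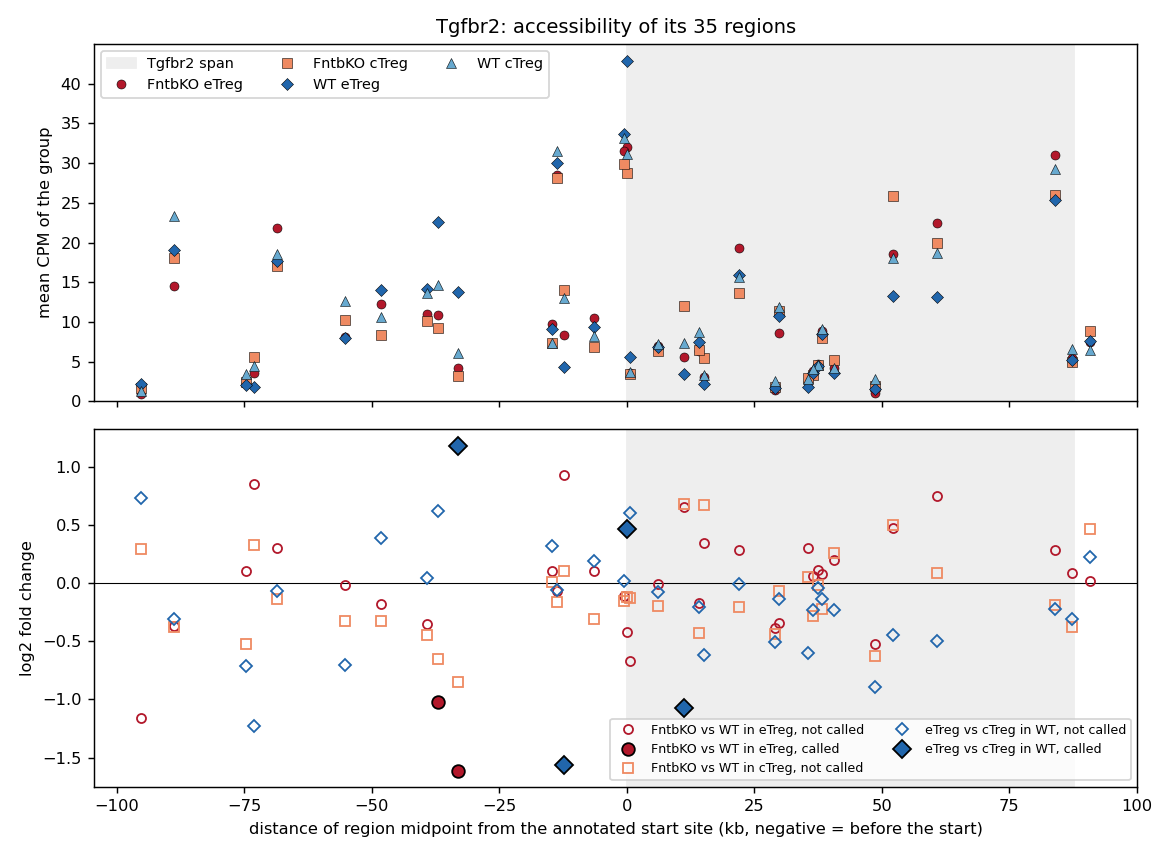
Tgfbr2 regions by distance of their midpoint from the start site (x axis, kb); the upper panel gives the mean CPM of each group and the lower panel the log2 fold change, with filled symbols for called folds. The 2 called FntbKO folds in eTreg, -1.61 and -1.02, stand next to each other at -33.1 and -36.9 kb, and the called WT subset fold of -1.56 at -12.2 kb.

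Tgfbr3, the gene of the co-receptor betaglycan, was less open in eTreg than in cTreg cells over most of its 29 regions in both genotypes. Summed over the regions, CPM was 185 and 154 in FntbKO eTreg, 261 and 207 in FntbKO cTreg, 146, 183 and 125 in WT eTreg, and 216, 207 and 222 in WT cTreg. All 5 eTreg libraries lay below all 5 cTreg libraries. The fold of eTreg over cTreg was below 0 at 24 regions in FntbKO, with a median of -0.58, and at 25 regions in WT, with a median of -0.65, while over all tested regions 50.4% were below 0 in FntbKO and 51.1% in WT. Of these regions 1 was called in FntbKO and 3 were called in WT, all lower in eTreg. That is 3.45% in FntbKO, against 1.36% of all tested regions, and 10.3% in WT, against 3.44%. At 23 regions the fold was below 0 in both genotypes, which share no library in this contrast.

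A called Tgfbr3 region lay 27.8 kb below the span, at chr5:107078394-107078762. It had 4.61 and 3.44 CPM in FntbKO eTreg, 9.71 and 7.78 CPM in FntbKO cTreg, 2.29, 2.79 and 1.02 CPM in WT eTreg, and 6.42, 6.54 and 6.97 CPM in WT cTreg. It fell in WT eTreg by 1.64 on the log2 scale (SE 0.32, edgeR adjusted p = 0.00571) and kept its call whichever library was left out, with folds of -1.93 to -1.37. In FntbKO eTreg over cTreg was -1.14 (SE 0.36, adjusted p = 0.106), with no overlap of the libraries. The neighbouring region 26.2 kb below the span, chr5:107079871-107080321, was the most open of the gene. It had 15.4 and 15.7 CPM in FntbKO eTreg, 27.6 and 19.6 CPM in FntbKO cTreg, 14.1, 21.4 and 12.6 CPM in WT eTreg, and 26.8, 29.4 and 23.1 CPM in WT cTreg. The eTreg libraries were below the cTreg libraries in both genotypes. It fell in WT eTreg by 0.69 (SE 0.18, adjusted p = 0.0325), and in FntbKO eTreg over cTreg was -0.58 (SE 0.22, adjusted p = 0.195). That call was lost without WT cTreg 1, 2 or 3, or without WT eTreg 1 or 3, with an adjusted p of up to 0.184.

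Inside the Tgfbr3 span, 94.5 kb above its low end (chr5:107201072-107201396), a region had 8.41 and 4.03 CPM in FntbKO eTreg, 9.98 and 8.56 CPM in FntbKO cTreg, 3.37, 4.88 and 3.73 CPM in WT eTreg, and 8.1, 6.37 and 9.93 CPM in WT cTreg. The FntbKO eTreg libraries differed widely, and the lower one overlapped with the WT eTreg libraries. In WT it fell in eTreg by 1.02 (SE 0.29, edgeR adjusted p = 0.0439), a call lost without WT cTreg 1 or 3 or WT eTreg 1 or 3, with an adjusted p of up to 0.232, and in DESeq2. The only call in FntbKO was a region of few counts 44.1 kb above the low end, chr5:107150644-107150890, with 0 counts in both FntbKO eTreg libraries and 2.33 and 1.36 CPM in FntbKO cTreg, beside 0.241, 0.797 and 0 CPM in WT eTreg and 1.68, 0.688 and 1.48 CPM in WT cTreg. Against a floor of 3 counts over the FntbKO eTreg group, or 0.198 CPM, the 1.67 CPM of the pooled FntbKO cTreg libraries was 8.44-fold higher. This ratio is not a strict lower bound, since the 1.67 CPM was taken as exact. It also takes counts as independent, which they are not if both mates of a pair were counted. The edgeR adjusted p of eTreg over cTreg was 0.0371. With halved counts or a mean of at least 20 counts the region was not tested. The call was lost in DESeq2 and without FntbKO cTreg 1, FntbKO eTreg 1, FntbKO eTreg 2 or WT cTreg 3, with an adjusted p of up to 0.359.

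**Figure D3:**
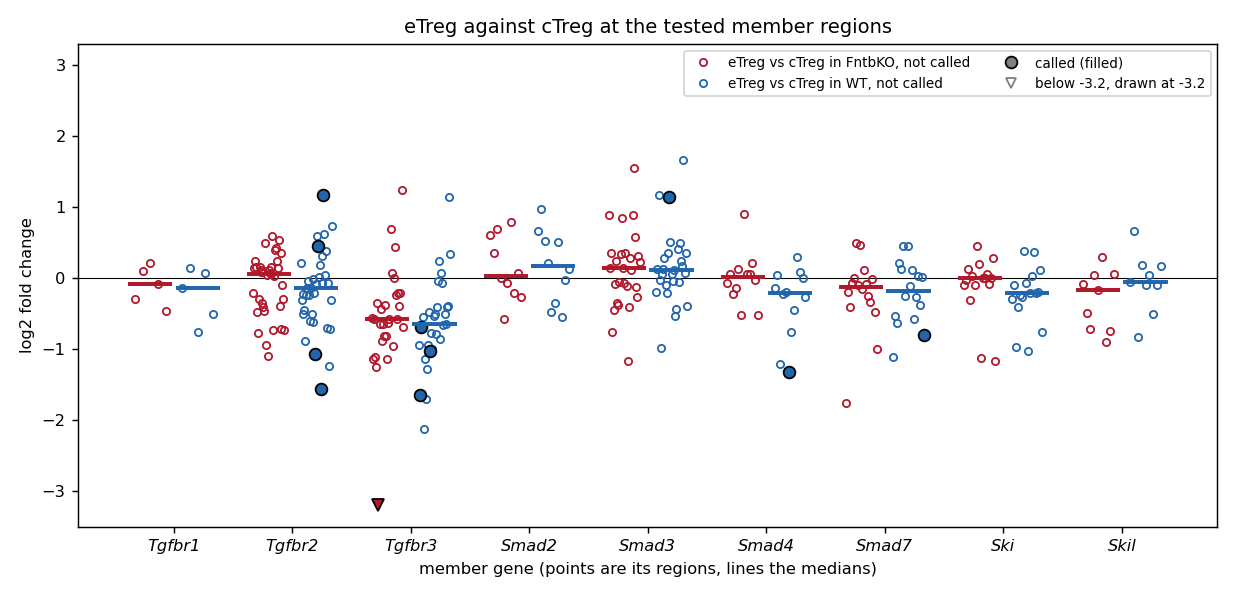
Log2 fold change of eTreg over cTreg (y axis) at the 159 tested regions by member gene, with FntbKO left of WT; filled symbols are called folds and thick lines medians. The Tgfbr3 medians lie at -0.58 in FntbKO and -0.65 in WT.

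Smad2, a receptor-activated Smad, had 10 regions and no call in any comparison. Its most open region, at the low end of its span (chr18:76241072-76242553), was also the most open of all 161. It had 117 and 107 CPM in FntbKO eTreg, 113 and 110 CPM in FntbKO cTreg, 131, 103 and 131 CPM in WT eTreg, and 118, 87.1 and 107 CPM in WT cTreg. The groups overlapped in every contrast. FntbKO over WT had the same sign in both subsets at 9 of the 10 regions, below 0 at 7 of these, with medians of -0.25 in eTreg and -0.18 in cTreg.

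Smad3, the other receptor-activated Smad, had 28 regions and 1 call. Its most open region lay 51.4 kb into the gene (chr9:63706312-63706817), with 47.7 and 52.9 CPM in FntbKO eTreg, 54.2 and 52.9 CPM in FntbKO cTreg, 59.6, 57.6 and 59.6 CPM in WT eTreg, and 54.7, 60.2 and 55.3 CPM in WT cTreg. FntbKO lay below WT in both subsets without overlap, but the folds were small, at -0.22 (SE 0.11) in eTreg and -0.08 (SE 0.11) in cTreg, and neither was called. The region over the Smad3 start (chr9:63757802-63758660) had 25.8 and 25.2 CPM in FntbKO eTreg, 20.1 and 21.8 CPM in FntbKO cTreg, 22.2, 30.6 and 27.3 CPM in WT eTreg, and 20.9, 20.5 and 19 CPM in WT cTreg, so each eTreg library was higher than each cTreg library, with no call. The called region lay 31.2 kb into the gene (chr9:63726608-63726924). It had 3.61 and 4.43 CPM in FntbKO eTreg, 1.78 and 2.59 CPM in FntbKO cTreg, 5.66, 6.97 and 6.79 CPM in WT eTreg, and 2.93, 3.96 and 2.11 CPM in WT cTreg. It rose in WT eTreg by 1.14 (SE 0.32, edgeR adjusted p = 0.0461), and eTreg over cTreg in FntbKO was 0.85 (SE 0.40, adjusted p = 0.31). The call was lost in DESeq2, with scaling to total counts, and without any one of FntbKO eTreg 1 or 2, WT cTreg 1 or 3 or WT eTreg 1, 2 or 3, with an adjusted p of up to 0.23.

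Smad4, the partner shared by the activated Smads, had 13 regions, 12 of them tested. In WT 1 of these was called, lower in eTreg, at 13.6 kb above the low end of the span (chr18:73648412-73648780). It had 9.02 and 4.72 CPM in FntbKO eTreg, 11.5 and 7.78 CPM in FntbKO cTreg, 2.41, 3.49 and 3.05 CPM in WT eTreg, and 8.66, 6.19 and 7.61 CPM in WT cTreg. The WT eTreg libraries were the lowest, and the FntbKO subsets overlapped. It fell in WT eTreg by 1.32 (SE 0.30, edgeR adjusted p = 0.0142), and the call was lost without WT cTreg 1 or 3 or WT eTreg 1 or 3, with an adjusted p of up to 0.08. The most open Smad4 region, over the high end of the span (chr18:73702641-73704293), had 88.8 and 83.2 CPM in FntbKO eTreg, 95.6 and 79.6 CPM in FntbKO cTreg, 86.4, 75.5 and 77.5 CPM in WT eTreg, and 83.1, 73.3 and 83.4 CPM in WT cTreg, with overlap in every contrast. Between the genotypes, FntbKO was above WT at 10 of the 12 tested regions in eTreg, with a median of 0.46, and at the same 10 in cTreg, with a median of 0.28, but 0 were called in either subset by edgeR, with 4 in eTreg and 1 in cTreg at an unadjusted p under 0.05. The summed CPM of the gene was 184 and 184 in FntbKO eTreg, 199 and 180 in FntbKO cTreg, 157, 150 and 153 in WT eTreg, and 165, 163 and 174 in WT cTreg. The FntbKO libraries lay above the WT libraries of the same subset.

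Smad7, the inhibitory Smad and itself a target of the pathway, had 16 regions. Its most open region, inside the span at 9.95 kb above the low end (chr18:75377317-75378029), had 64.3 and 60.8 CPM in FntbKO eTreg, 78.6 and 69.8 CPM in FntbKO cTreg, 68.3, 63.8 and 53.6 CPM in WT eTreg, and 72.9, 76.2 and 74.4 CPM in WT cTreg. The eTreg libraries lay below the cTreg libraries in each genotype, with log2 folds of -0.25 (SE 0.12) in FntbKO and -0.26 (SE 0.10) in WT, neither called. The called region lay 14.2 kb above the span (chr18:75410152-75410776). It had 14.0 and 10.0 CPM in FntbKO eTreg, 26.8 and 20.6 CPM in FntbKO cTreg, 7.95, 13.9 and 8.31 CPM in WT eTreg, and 22.1, 14.8 and 16.6 CPM in WT cTreg. All 5 eTreg libraries were below all 5 cTreg libraries. In WT it fell in eTreg by 0.80 (SE 0.22, edgeR adjusted p = 0.0402), and in FntbKO eTreg over cTreg was -1.0 (SE 0.26, adjusted p = 0.0511). The WT call was lost without WT cTreg 1 or 3 or WT eTreg 1 or 3, with an adjusted p of up to 0.2. FntbKO over WT had a median of 0.05 in eTreg and 0.03 in cTreg over the gene.

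Ski and Skil, the repressor genes, had 16 and 9 regions and no call in any comparison. The most open Ski region, 21.5 kb into the gene (chr4:155200590-155201453), had 84.7 and 82.3 CPM in FntbKO eTreg, 80.3 and 86.7 CPM in FntbKO cTreg, 88.9, 101 and 84.0 CPM in WT eTreg, and 92.9, 90.3 and 86.1 CPM in WT cTreg. The most open Skil region, over the low end of the span (chr3:31094456-31095238), had 98.0 and 114 CPM in FntbKO eTreg, 125 and 115 CPM in FntbKO cTreg, 103, 92.7 and 93.5 CPM in WT eTreg, and 118, 86.0 and 103 CPM in WT cTreg. The Ski region overlapped between the groups in every contrast, and the Skil region did so except between FntbKO eTreg and FntbKO cTreg. Most regions of the 2 genes had genotype folds of opposite sign, with no call. At Ski, FntbKO over WT was below 0 at 11 of 16 regions in eTreg, with a median of -0.13, and at 13 in cTreg, with a median of -0.20. At Skil it was above 0 at 8 of 9 regions in eTreg, with a median of 0.14, and at 8 in cTreg, with a median of 0.29. The medians over all tested regions were -0.00 in eTreg and -0.01 in cTreg, with 50.1% and 50.7% of the folds below 0. An unadjusted p under 0.05 in edgeR was reached by 3 Ski regions in eTreg and 5 in cTreg, and by 1 Skil region in eTreg and 0 in cTreg.

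**Figure D4:**
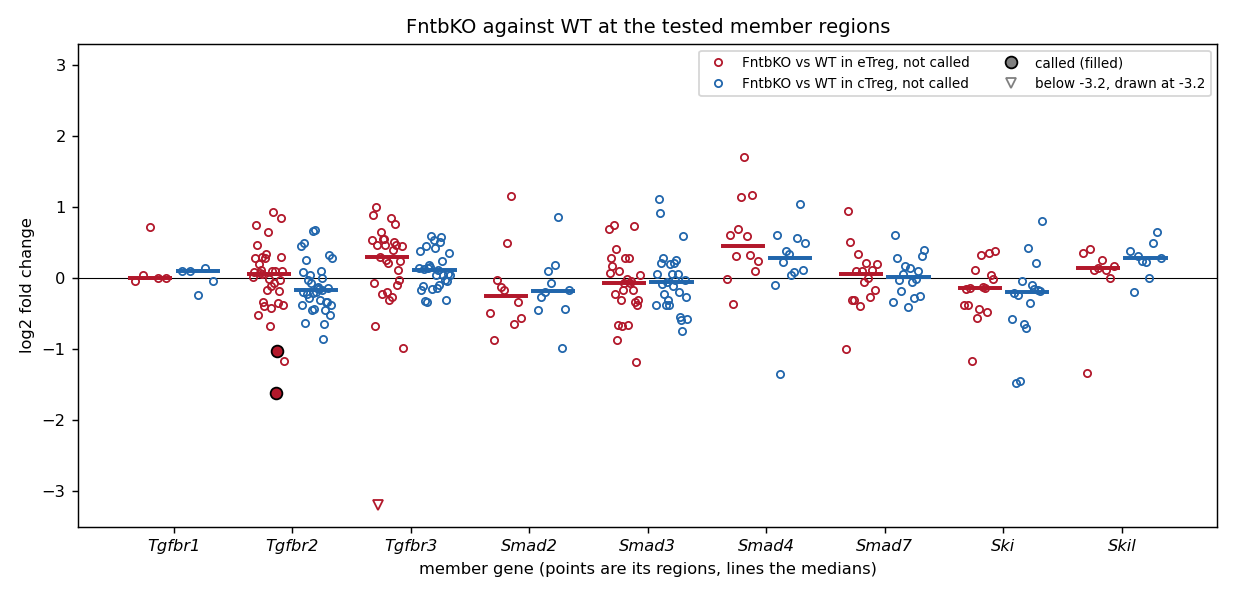
Log2 fold change of FntbKO over WT (y axis) at the 159 tested regions by member gene, with eTreg left of cTreg; filled symbols are called folds and thick lines medians. The Smad4 medians lie at 0.46 in eTreg and 0.28 in cTreg, and the only filled symbols are the 2 Tgfbr2 regions at -1.61 and -1.02.

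The contrasts of the genotypes in eTreg and in cTreg share no library, nor do those of the subsets in FntbKO and in WT. FntbKO over WT had the same sign in eTreg and cTreg at 120 of the 159 member regions (75.5%), against 64.7% of all tested regions. It did so at all 12 Smad4 and all 9 Skil regions. At the other genes the share ran from 40.0% at Tgfbr1 (2 of 5 regions) to 90.0% at Smad2 (9 of 10), with 63.0% at Smad3. The correlation of these folds across regions was 0.36 for the members and 0.38 for all regions. The eTreg over cTreg fold had the same sign in FntbKO and WT at 115 of the 159 (72.3%), against 67.9% of all, with correlations of 0.57 and 0.51. These correlations are across regions, which are not replicates. The median fold over the members was -0.08 in FntbKO and -0.14 in WT for eTreg over cTreg, against -0.00 and -0.01 over all regions. For FntbKO over WT it was 0.05 in eTreg and -0.02 in cTreg. At the members without a call in a comparison, the smallest unadjusted p of a gene ran from 0.000733 to 0.154 for eTreg over cTreg in FntbKO, from 0.00576 to 0.0483 in WT, from 0.000682 to 0.205 for FntbKO over WT in eTreg and from 0.00185 to 0.354 in cTreg.

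By summed access the order of the genes was Ski (389 CPM), Tgfbr2 (384), Smad3 (325), Smad7 (314), Skil (206), Tgfbr3 (192), Smad4 (174), Smad2 (171) and Tgfbr1 (105), as the mean of the 4 group means. A sum grows with the number of regions, which ran from 5 for Tgfbr1 to 35 for Tgfbr2, and with their width. By the most open region the order was instead Smad2 (112 CPM), Skil (106), Ski (87.0), Smad4 (83.3), Smad7 (68.3), Tgfbr1 (67.1), Smad3 (54.9), Tgfbr2 (33.7) and Tgfbr3 (20.4). These regions differ in width, from 450 to 1652 bp. The range over the 10 libraries overlapped between each pair of neighbours in this order, except between Tgfbr1 and Smad3 and between Smad3 and Tgfbr2. The median member region had 6.84 CPM at a width of 365 bp, against 5.02 CPM and 352 bp over all regions.

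**Figure D5:**
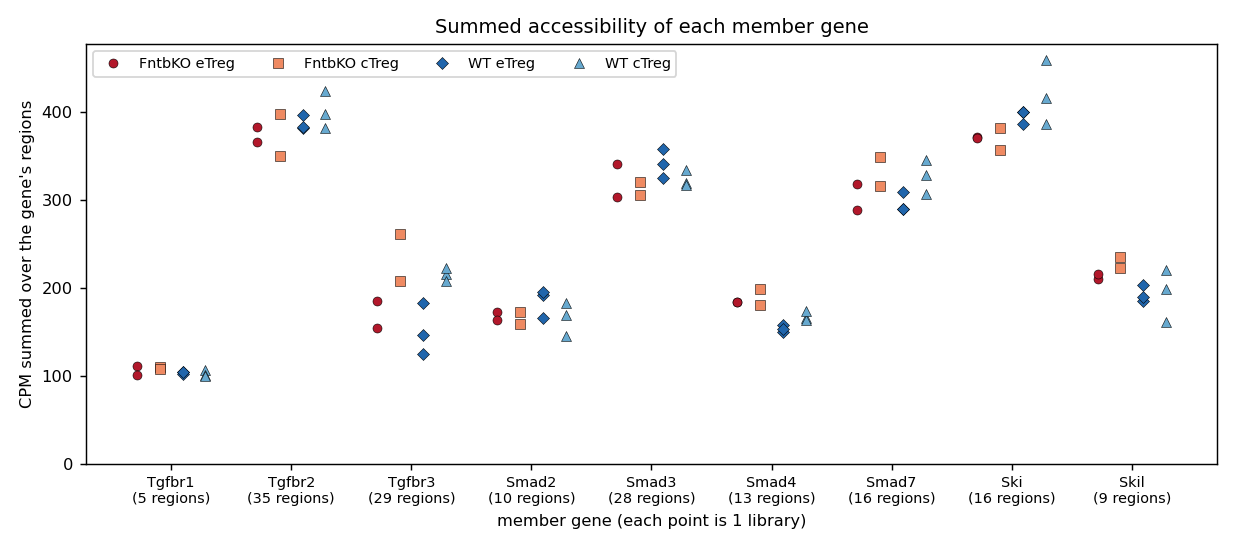
CPM summed over the regions of each member gene (y axis), with 1 point per library in the order FntbKO eTreg, FntbKO cTreg, WT eTreg and WT cTreg. At Tgfbr3 the eTreg libraries of both genotypes (125 to 185 CPM) lie below the cTreg libraries (207 to 261 CPM).

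Other genes of the pathway were taken from 5 lists. Among the regions of 14 genes of TGF-β ligands and their activation, 1 of 86 tested rose in FntbKO eTreg relative to cTreg (1.16%, against 1.36% of all tested regions called), and in WT 3 rose and 3 fell (6.98%, against 3.44% of all). The region 26.4 kb from Itgav, the integrin alpha chain that helps to free latent TGF-β, had 39.7 and 46.4 CPM in FntbKO eTreg, 20 and 30.5 CPM in FntbKO cTreg, 33.5 to 47.2 CPM in WT eTreg and 22.6 to 23.0 CPM in WT cTreg. It rose in both genotypes, by 0.75 in FntbKO (SE 0.17, edgeR adjusted p = 0.0292, lost without FntbKO cTreg 1, FntbKO eTreg 1 or 2 or WT cTreg 3) and by 0.81 in WT (SE 0.15, adjusted p = 0.00372, kept without any one library). The region 11.4 kb from Lrrc32, whose product GARP holds latent TGF-β on the Treg surface, fell in WT eTreg by 0.81 (SE 0.16, adjusted p = 0.00579, kept without any one library). Another Lrrc32 region, inside the gene, was the only one of the list called between genotypes: it had 12.4 and 17.4 CPM in FntbKO cTreg against 27.9 to 29.5 CPM in WT cTreg, a fall of 0.92 (SE 0.17, adjusted p = 0.00861) that was lost without FntbKO cTreg 1.

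Of 41 tested regions of other receptors of the superfamily, 1 rose in FntbKO eTreg relative to cTreg (Acvr1b) and 2 fell in WT eTreg (Acvr1c and Acvrl1). These are 2.44% and 4.88%, against the same 1.36% and 3.44% of all. The Acvr1b call was lost without FntbKO cTreg 1 or FntbKO eTreg 2. Those of Acvr1c and Acvrl1 were each lost without WT cTreg 1 or 3 or WT eTreg 1 or 3. Of 65 regions of other Smads and Smad partners, 0 were called in FntbKO by edgeR or DESeq2, with 7 at an unadjusted p under 0.05 in edgeR. In WT 1 fell (Trim33), or 1.54%. The Trim33 call was lost without FntbKO eTreg 1 or 2, WT cTreg 1 or 3 or WT eTreg 1 or 3. Of 141 regions of genes that turn over receptors and Smads, 1 rose (Nedd4l) and 1 fell (Pmepa1) in FntbKO, or 1.42%. Both of these calls were lost without any one FntbKO library, WT cTreg 3 or WT eTreg 3. In WT 1 rose (Wwp2) and 6 fell (at Ldlrad4, Nedd4l and Smurf1), or 4.96%. The Wwp2 call was lost without WT cTreg 1 or 3 or WT eTreg 3. A Nedd4l call in WT was lost without WT cTreg 1 or 3 or any one WT eTreg library. Of 151 regions of genes that TGF-β is known to regulate in T cells, 4 rose in FntbKO eTreg (at Gpr15, Runx1 and Runx3), or 2.65%. In WT 9 rose (among others at Cdkn2b, Gzmb, Runx1, Runx3 and Tbx21) and 3 fell (at Eomes and Runx1), or 7.95%. The WT calls with the smallest p, at Runx1 and Runx3, were both lost without WT cTreg 3, and that of Runx3 also without WT eTreg 3. The Gpr15 region 12.9 kb from the gene, which encodes a receptor for homing to the colon, had 22.0 and 23.3 CPM in FntbKO eTreg and 9.3 and 13.4 CPM in FntbKO cTreg, beside 20.7 to 24.3 CPM in WT eTreg and 18.4 to 20.8 CPM in WT cTreg. It rose in FntbKO eTreg by 0.97 (SE 0.20, edgeR adjusted p = 0.0134, lost without FntbKO cTreg 1 or FntbKO eTreg 1 or 2). Between the genotypes the 5 lists held 2 calls in cTreg, both lower in FntbKO. These were the Lrrc32 region (1.16% of its list) and 1 of Runx1 (0.662%), against 0.568% of all tested regions and 0.378% lower. The Runx1 call was lost without FntbKO cTreg 1 or 2, WT cTreg 2 or WT eTreg 3. In eTreg edgeR called 0, and 6 to 19 regions of a list had an unadjusted p under 0.05. There DESeq2 called 1 region, in the list of ligands and their activation. The interaction called 0 regions of the 5 lists in edgeR and in DESeq2, with 1 to 9 regions of a list at an unadjusted p under 0.05 in edgeR.

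The 100 kb limit cut through a run of regions before Tgfbr2. Just inside it lay regions at 88.4 kb with a mean of 18.7 CPM over the groups and at 95.0 kb with 1.52 CPM, and at Smad3 one at 86.1 kb with 4.81 CPM. Just outside, with Tgfbr2 still the nearest gene, lay regions at 108 kb with 5.93 CPM, at 119 kb with 36.1 CPM and at 144 kb with 14.3 CPM, and the one at 119 kb was on average more open than any Tgfbr2 region inside the limit. Its log2 fold of eTreg over cTreg in WT was -0.48, past the threshold of the calls, and it is outside the counts given for Tgfbr2.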

How the data were processed

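The deposited table holds raw counts, not normalized, for 77076 regions in 10 ATAC-seq libraries. The submitters' processing notes name MACS2 2.1.1, bedtools, SAMtools, Picard 2.9.4 and Trimmomatic 0.36, with mm10 and GRCm38 as builds. How reads were aligned and peaks merged is not given in the sources used here. Even numbers made up 66.73% to 79.24% of a library's counts, as when both mates of a pair are counted, so halved counts were tried. The table does not state whether coordinates start at 0 or 1, and they are printed as they stand.

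The counts were TMM-scaled and fitted in edgeR 4.0.16 in R 4.3.3 (glmQLFit and glmQLFTest, robust, filterByExpr, 1 mean per group, all 10 libraries, 6 residual degrees of freedom). The SE of a log2 fold is its size divided by the square root of F. Values are printed per library. Alternatives were DESeq2 1.42.0, its size factors, total counts, other filters, halved counts, fewer groups, a replicate block, regions inside spans alone, and leaving out libraries. The test was checked on simulated data. Named were the most open region of each gene, every called region, the regions next to the 100 kb limit, and at most 2 called regions per list and comparison. The member genes, the 5 pathway lists and the 6 marker lists were chosen with earlier results of these data known. Limits of 3 counts cover only the counting error of the group without counts. Single genes of the lists that are not named are not reported here.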

Additional observations from a re-analysis of the deposited data

How the results depend on the processing

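Of 245 recomputed values of the 13 called folds, 190 kept the call, 55 lost it and 0 changed sign. With 1 library left out, the called member regions numbered 0 to 5 for eTreg over cTreg in FntbKO (5 without FntbKO cTreg 2; 0 without FntbKO cTreg 1, FntbKO eTreg 1 or 2, or WT cTreg 3) and 2 to 17 in WT (2 without WT eTreg 1 or 3, 3 without WT cTreg 3, 4 without WT cTreg 1, 17 without WT cTreg 2). They numbered 0 to 3 for FntbKO over WT in eTreg, and 0 to 0 in cTreg and for the interaction. Where a library left a FntbKO group with 1 sample, that sample was assumed to vary like the other groups. Without both WT cTreg 2 and FntbKO cTreg 1, a pair chosen with earlier results of these data known, there were 0 in FntbKO and 17 in WT for eTreg over cTreg, and 4 for FntbKO over WT in eTreg. Counting only regions that overlap a span gave 5 calls in the WT subsets and 0 for FntbKO over WT in eTreg. For eTreg over cTreg in FntbKO, DESeq2 gave 2, halved counts 3, a mean of at least 20 counts 2 and a fit of the compared groups alone 3, and that last fit gave 4 for FntbKO over WT in eTreg. The replicate block gave 4 calls in FntbKO and 16 in WT for eTreg over cTreg, and 4 in eTreg and 1 in cTreg for FntbKO over WT. Replicate numbers were not taken to pair the libraries, since not every same-numbered pair had a residual correlation over 0.1: these ran from -0.0781 to 0.18, over 0.1 in 5 of 13 pairs. In 24 differently numbered pairs they ran from -0.18 to 0.0986, with 0 over 0.1. In a FntbKO group of 2 libraries the deviations from the group mean mirror each other. Correlations with such a group therefore repeat or only change sign, and these counts are not of independent pairs. Between eTreg and cTreg of the same number they were 0.18 in FntbKO, by construction the same for both numbers. In WT they were 0.165, 0.0833 and 0.0317. These values are at most a hint of pairing, from the data and not from the design. The member median for FntbKO over WT in cTreg lay between -0.05 and 0.02 with 1 library left out, on both sides of 0. The cause of these shifts was not tested. The 2 libraries of each FntbKO group and the median of 32 to 115 counts per member region limit the precision.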
